A study of Mus musculus with 6 samples.

Results

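The genes described here encode 10 chaperones and proteases of the mitochondrion, chosen by name as Hspd1, Hspe1, Hspa9, Trap1, Lonp1, Clpp, Clpx, Afg3l2, Yme1l1 and Htra2, and all 10 were found among the 24054 genes counted in dissected substantia nigra (SN) from MitoParks and their littermate controls. MitoParks carry Cre recombinase at 1 allele of the dopamine transporter gene Slc6a3 (Dat+/Cre) and loxP sites in both alleles of Tfam (Tfam LoxP/LoxP), the gene of mitochondrial transcription factor A. The study's methods give its control mice as Dat+/+ with 1 floxed Tfam allele (Tfam +/LoxP), a C57BL/6 background and no Cre, so both groups carry a floxed allele and only MitoParks lack 1 intact copy of Slc6a3. Recombination is limited to cells that use the Slc6a3 promoter, mainly dopaminergic neurons, which are a minority of the cells in an SN dissection. None of the mice was treated, the labels give an age of 16 to 17 weeks and name the tissue only as brain, and polyadenylated RNA was sequenced from 3 mice per group. The dopaminergic markers Th, between 39.0 and 159 CPM, and Slc6a3, between 13.3 and 383 CPM, were counted in all 6 mice, where CPM is the count of a gene scaled to a common library size by edgeR's TMM method.

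Nearly all mitochondrial proteins are made in the cytosol and threaded unfolded into the organelle. Hspa9 (mortalin), the Hsp70 of the matrix, pulls them through the inner membrane, and Hspd1 (Hsp60) with its lid Hspe1 (Hsp10) forms the folding chamber of the matrix, while Trap1 is the mitochondrial Hsp90. Proteins that do not fold or assemble are removed by Lonp1 and by Clpp with its unfoldase Clpx in the matrix, by Afg3l2 and Yme1l1 in the inner membrane, and by Htra2 in the intermembrane space. When this capacity is exceeded, cells can raise the transcription of several of these genes, a program known as the mitochondrial unfolded protein response, and loss of mitochondrial DNA expression can set it off. Lonp1 also degrades TFAM protein, and mice without functional Htra2 develop neurodegeneration with parkinsonian features.

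Hspd1 and Hspe1 lie head to head on mouse chromosome 1 and are read in opposite directions from one short interval, so their promoter is shown before their values. RefSeq places the nearer start of Hspd1 at base 55087932 on the minus strand and that of Hspe1 at base 55088148 on the plus strand (GRCm38.p6), which leaves 215 bases between them, chr1:55087933-55088147, with a GC content of 70.2%. A second Hspd1 start lies at base 55088243, beyond the start of Hspe1. The interval is printed on the plus strand, from the Hspd1 side to the Hspe1 side.
Hspd1-Hspe1 shared promoter: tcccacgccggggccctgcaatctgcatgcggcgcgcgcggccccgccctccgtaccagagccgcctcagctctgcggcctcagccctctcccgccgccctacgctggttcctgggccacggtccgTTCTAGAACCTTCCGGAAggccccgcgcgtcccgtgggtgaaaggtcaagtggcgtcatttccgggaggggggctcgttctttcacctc
The capitals, bases 127 to 144 of the interval, hold 3 overlapping pairs of heat shock units, the short inverted repeats that heat shock factors bind. The pair TTCNNGAA matched at bases 127 to 134 and 137 to 144, and GAANNTTC matched at bases 132 to 139, between them and sharing bases with both. Searched on both strands in 32851 RefSeq promoters, each 250 bases before to 50 bases after a start, TTCNNGAA was found in 8.5% and GAANNTTC in 7.9%. Of the 7 genes of the group with a promoter in the table, 3 held the first (Clpp, Hspd1 and Hspe1) and 2 held the second (Hspd1 and Hspe1). The Hspd1 and Hspe1 matches are the same bases, the capitals above, counted for both genes. The Clpp match lay 33 bases after its start. The composite element bound by C/EBP and ATF factors, TGATGCAA, was in 0.9% of all promoters and in 0 of the 7. TGCGCA, the core of the site bound by the respiratory regulator NRF1, was in 7.8% of all promoters and in those of Clpx and Lonp1, and CCAAT was in 37.4% and in those of Clpx, Hspd1 and Yme1l1. These matches describe the letters of the windows and not binding.

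The targeted gene was examined first, because it checks the labels. Tfam had 40.3, 44.4 and 45.5 CPM in littermate controls 1, 2 and 3 and 32.7, 33.1 and 33.2 CPM in MitoParks 1, 2 and 3. The groups did not overlap, with means of 43.4 ± 2.71 and 33.0 ± 0.284 CPM (SD, n = 3 each). The log2 fold change was -0.40 (SE 0.11, unadjusted p = 0.00498, adjusted p = 0.999, edgeR), with a 95% interval from -0.64 to -0.15. In bulk tissue, fewer cells of a type and less RNA per cell cannot be told apart. The 8 dopaminergic marker genes were all lower on average in MitoParks. Their sum was 342, 376 and 1112 CPM in the controls against 196, 365 and 352 CPM in MitoParks. Control 3 stood apart from the other mice, and for some markers, such as Th, the lower mean rested on it. Th had 55.7, 47.4 and 159 CPM in controls and 39.0, 57.0 and 65.5 CPM in MitoParks. Slc6a3, the gene that carries Cre in MitoParks, had 72.6, 65.3 and 383 CPM in controls and 13.3, 51.1 and 40.9 CPM in MitoParks. Its groups did not overlap, and its log2 fold change was -2.30 (SE 0.70, unadjusted p = 0.00869, adjusted p = 0.999, edgeR).

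None of the 10 chaperones and proteases differed detectably between MitoParks and littermate controls. In edgeR's quasi-likelihood test, 0 of the 10 had an unadjusted p below 0.05, 0 also passed a fold change of 1.5, and 0 had groups that did not overlap. Across the 14568 genes tested, 83 passed both cutoffs (0.57%; 55 higher and 28 lower in MitoParks), 159 passed the p alone (1.09%), and 686 had groups that did not overlap (4.71%). No gene passed an adjusted p of 0.05 in that test or by DESeq2 or limma-voom, and 1 did by edgeR's likelihood ratio test. With such shares, a group of 10 genes without a call is close to the background. The log2 fold changes ran from -0.09 (Yme1l1) to 0.10 (Clpp), 6 of 10 were below 0, and their median was -0.01 beside -0.0047 over all tested genes, of which 51.4% were lower. Each adjusted p was 0.999.

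Each of the 10 genes had between 180 and 3226 expected counts per mouse. The 95% intervals of the 10 fold changes reached from 0.785 (the lower bound of Yme1l1) to 1.30 (the upper bound of Clpp). All 10 intervals therefore lay inside a 1.5-fold change in either direction, as did those of 67% of all tested genes. The intervals are for the whole dissected tissue, and the size of a change within dopaminergic neurons alone cannot be read from them.

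**Figure D1:**
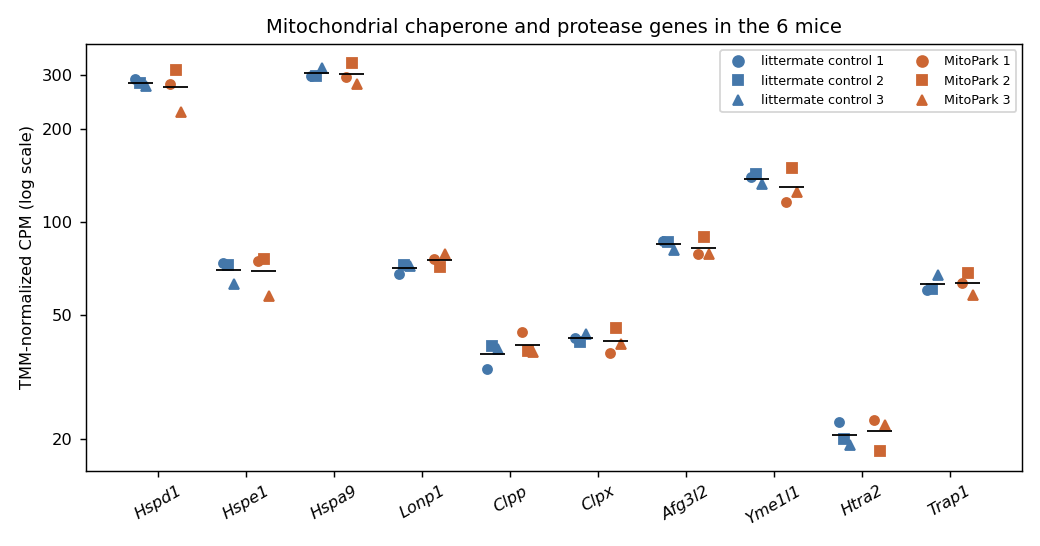
TMM-normalized CPM on a log axis for each of the 10 chaperone and protease genes, 1 point per mouse (blue for littermate controls, orange for MitoParks, with circles, squares and triangles for mice 1, 2 and 3) and the mean of each group as a line. For all 10 genes the ranges of the groups overlap, and for Hspd1 the 3 MitoParks span 227 to 311 CPM around controls of 275 to 289.6 CPM.

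Hspd1, the wall of the folding chamber, had 289.6, 282 and 275 CPM in the 3 controls and 280.5, 311 and 227 CPM in the 3 MitoParks. The highest and the lowest mouse were both MitoParks, and the means were 282 ± 7.20 and 273 ± 42.5 CPM (SD, n = 3 each). The log2 fold change was -0.05 (SE 0.13, 95% interval -0.33 to 0.24, unadjusted p = 0.717, edgeR). Hspe1, its lid, had 73.9, 72.9 and 63.2 CPM in controls and 75.1, 75.8 and 57.9 CPM in MitoParks. Control 3 and MitoPark 3 were the low mice of their groups, and the log2 fold change was -0.01 (SE 0.13, 95% interval -0.31 to 0.29, unadjusted p = 0.95, edgeR).

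Hspa9, the import motor, had 296, 297 and 315 CPM in controls and 295, 326 and 280.3 CPM in MitoParks. Again MitoPark 2 was the highest mouse and MitoPark 3 the lowest, with a log2 fold change of -0.01 (SE 0.11, 95% interval -0.25 to 0.22, unadjusted p = 0.921, edgeR). Trap1, the mitochondrial Hsp90, had 60.5, 60.9 and 67.5 CPM in controls and 63.4, 68.6 and 58.1 CPM in MitoParks. Its extremes fell in the same 2 mice, and the log2 fold change was 0.01 (SE 0.11, 95% interval -0.24 to 0.26, unadjusted p = 0.935, edgeR). The annotation used here (GENCODE M21) places 54 exon bases of Trap1 opposite exons of Dnase1.

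Lonp1, the matrix protease that also acts on TFAM, had 67.8, 72.7 and 72.3 CPM in controls and 75.9, 71.6 and 79.0 CPM in MitoParks. MitoParks 1 and 3 lay above every control and MitoPark 2 lay among them, and Lonp1 had the smallest unadjusted p of the group, 0.388, at a log2 fold change of 0.09 (SE 0.10, 95% interval -0.13 to 0.31, edgeR). Clpp, the proteolytic chamber that works with Clpx, had 33.5, 39.8 and 39.0 CPM in controls and 44.2, 38.5 and 38.0 CPM in MitoParks. Control 1 was the lowest and MitoPark 1 the highest, and the log2 fold change was 0.10 (SE 0.12, 95% interval -0.17 to 0.38, unadjusted p = 0.422, edgeR). Clpx, which unfolds and feeds substrates to Clpp, had 42.2, 41.0 and 43.6 CPM in controls and 37.7, 45.5 and 40.5 CPM in MitoParks. The controls sat inside the range of the MitoParks, at a log2 fold change of -0.04 (SE 0.11, 95% interval -0.29 to 0.22, unadjusted p = 0.76, edgeR).

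Afg3l2, the inner membrane protease whose active site faces the matrix, had 87.2, 86.3 and 81.2 CPM in controls and 78.7, 89.4 and 79.1 CPM in MitoParks. Yme1l1, its counterpart facing the intermembrane space, which cleaves the fusion protein OPA1, had 139.5, 143 and 133 CPM in controls and 116, 150.2 and 125 CPM in MitoParks. In both genes MitoParks 1 and 3 were below every control and MitoPark 2 was above them. Their log2 fold changes were -0.04 (SE 0.10, 95% interval -0.27 to 0.19, unadjusted p = 0.685) and -0.09 (SE 0.12, 95% interval -0.35 to 0.18, unadjusted p = 0.486, both edgeR). Htra2, a soluble serine protease, was the least abundant, with 22.6, 19.9 and 19.0 CPM in controls and 23.0, 18.2 and 22.1 CPM in MitoParks. Here MitoPark 2 was the lowest mouse, and the log2 fold change was 0.04 (SE 0.15, 95% interval -0.28 to 0.37, unadjusted p = 0.77, edgeR). Htra2 shares 535 exon bases with Loxl3 and 51 with Aup1 on the opposite strand, and the counting is not stated to have used strand, so reads from these genes may not be told apart. Exact two-sided permutation tests of the single genes, which cannot go below 0.1 with 3 mice against 3, gave p from 0.3 (Lonp1) to 1 (Hspe1 and Trap1).

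**Figure D2:**
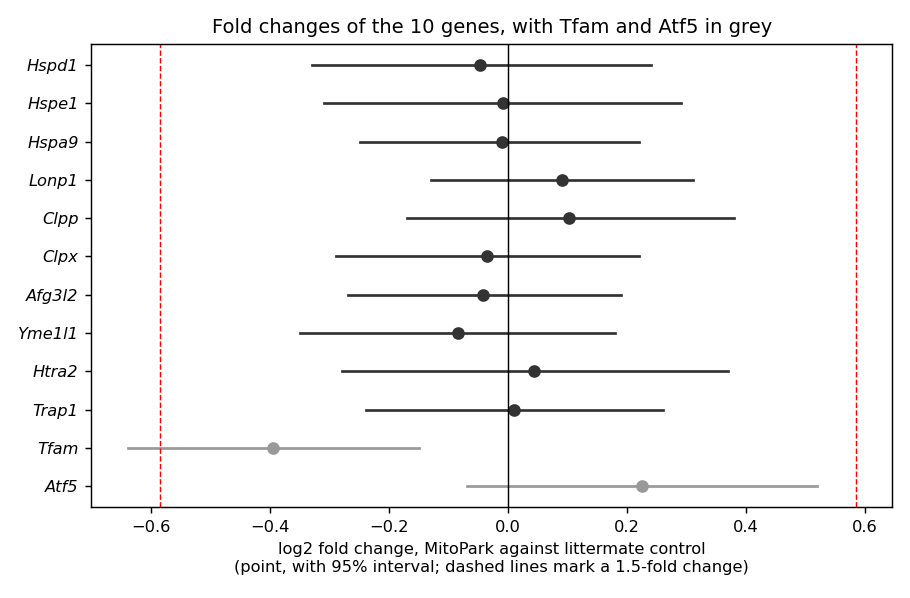
Log2 fold changes of MitoParks over littermate controls with 95% intervals from edgeR, for the 10 chaperones and proteases in black and for Tfam and Atf5 in grey, with dashed lines at a 1.5-fold change. The intervals of the 10 cross 0 and stay inside the dashed lines, and that of Tfam, from -0.64 to -0.15, does not cross 0.

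Per kilobase of the longest coding transcript, Hspd1, Hspa9 and Hspe1 stood above the 6 proteases and protease subunits, and the fourth chaperone, Trap1, lay among them. The mean level over the 6 mice was 115 CPM per kilobase for Hspd1, 98.9 for Hspa9 and 90.2 for Hspe1. Clpp followed at 39.5 CPM per kilobase, then Yme1l1 at 28.5, Trap1 at 27.2, Afg3l2 at 27.0, Lonp1 at 24.8, Clpx at 14.5 and Htra2 at 12.1. The widest step between neighbours was from Hspe1 to Clpp, 2.28-fold, and the next widest was from Lonp1 to Clpx, 1.71-fold, and both held in 6 of 6 mice. Hspd1 over Hspa9 and Clpp over Yme1l1 also held in 6 of 6 mice. The same length was used for a gene in every mouse, so agreement across mice does not check the lengths. In CPM without a length, Hspa9 (mean 302) was above Hspd1 (278) and Yme1l1 (134) above Clpp (38.8) in 6 of 6 mice. Yme1l1, Trap1, Afg3l2 and Lonp1 could not be ordered, since neighbours among them kept their order in only 3 or 4 of 6 mice. Hspa9 over Hspe1 and Clpx over Htra2 held in 5 of 6 mice.

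Subunits and partners of the same machine were compared as ratios, which do not depend on the scaling of a library. They are ratios of CPM, not corrected for length. Hspd1 over Hspe1 was 3.92, 3.87 and 4.35 in controls and 3.74, 4.11 and 3.93 in MitoParks. The highest ratio was that of control 3, and the mean log2 ratio differed by -0.04 (exact permutation p = 0.7). Clpp over Clpx was 0.794, 0.970 and 0.895 in controls and 1.17, 0.847 and 0.938 in MitoParks. The ratio was highest in MitoPark 1, and the log2 difference was 0.15 (exact permutation p = 0.5), which was 0.01 without MitoPark 1. Per kilobase, Clpp (34.1 to 45 CPM) was above Clpx (13.1 to 15.8 CPM) in every mouse. Afg3l2 forms its protease alone or with paraplegin, the product of Spg7, and Afg3l2 over Spg7 was 2.81, 2.53 and 2.43 in controls and 2.04, 2.58 and 2.33 in MitoParks. MitoPark 1 had the lowest ratio, and the log2 difference was -0.17 (exact permutation p = 0.3), or -0.08 without MitoPark 1. Hspa9 over Grpel1, its nucleotide exchange factor, was 7.08, 6.41 and 7.17 in controls and 6.31, 7.47 and 6.74 in MitoParks, a log2 difference of -0.01 (exact permutation p = 0.9). The groups overlapped in each of the 4 ratios, and each p was 0.9 after Benjamini-Hochberg adjustment over the 4 exact tests. Spg7 itself was at 32.9 ± 1.59 CPM in controls and 35.8 ± 2.5 CPM in MitoParks, and Grpel1 was at 44.0 ± 2.30 and 44.0 ± 2.55 CPM (SD, n = 3 each).

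**Figure D3:**
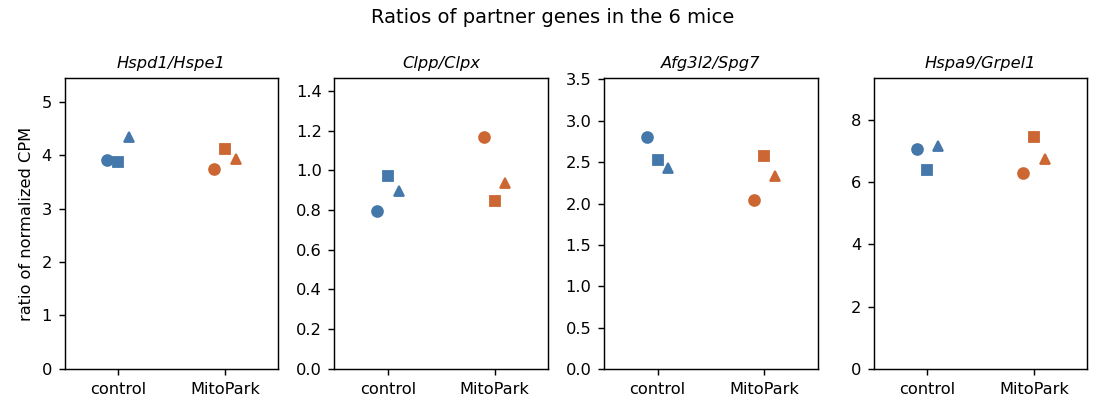
Ratios of normalized CPM between partners in each mouse, one panel per ratio, from 0 upwards. Circles, squares and triangles are mice 1, 2 and 3 of each group, numbers that are not stated to pair the mice. The Hspd1/Hspe1 ratio lies between 3.74 and 4.35 in all 6 mice.

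The summed level of the 10 genes was 1112, 1116 and 1109 CPM in controls and 1089, 1196 and 1007 CPM in MitoParks. MitoPark 2 was the highest of the 6 mice for 7 of the 10 genes, beside 16.6% of the 7649 tested genes at like levels. MitoPark 3 was the lowest for 4 of the 10, beside 26.4% of those genes, and MitoPark 1 was the lowest for 3. The SD in CPM was larger in MitoParks for 10 of 10 genes, as it was for 56.4% of the genes at like levels, though for Clpp the SDs were nearly equal, at 3.42 and 3.47 CPM. For Hspd1 the SD was 5.9 times that of the controls, and 96.4% of those genes had a smaller ratio. The wider spread did not extend to every sum. Lonp1, Clpp and Clpx together came to 144, 153 and 155 CPM in controls and 158, 156 and 157 CPM in MitoParks, with an SD of 6.19 CPM in controls and 1.21 CPM in MitoParks. The 13 other mitochondrial proteases also had the smaller SD of their sum in MitoParks, 6.06 beside 16.4 CPM. With 3 mice per group an SD is poorly known, the difference in spread was not tested, and the 10 genes share their libraries. Lonp1 varied least within groups, with an SD of 0.064 on the log2 scale (smaller in 4.52% of genes at like levels), and Hspe1 varied most, at 0.179, beside a median of 0.152.

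Several of the genes went up and down together across the mice. Over the 6 mice, which share their library and its scaling across all genes, log2(CPM + 0.1) of Hspd1 and Hspe1 correlated at r = 0.88 (rho = 0.83; r = 0.73 without the 2 mice farthest from the median of Hspd1). The 2 genes with the shared promoter were not each other's closest match, as Hspe1 ranked 432 of 10439 genes by correlation with Hspd1. Afg3l2 with Yme1l1 gave r = 0.95 (rho = 0.94; 0.95 without 2 mice), and Hspa9 with Trap1 gave r = 0.95 (rho = 0.83; 0.76 without 2 mice). Hspa9 and Htra2 ran in opposite directions at r = -0.83 (rho = -0.83), and r fell to -0.22 without the 2 farthest mice. Hspd1 and Lonp1 gave r = -0.75. Of the 45 pairs, 26 had an r above 0, and the median was 0.25.

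Among tested genes above 10 CPM, the 5 most like Hspd1 included Stip1 (r = 0.994), Dpf2 (0.993), Macrod2 (0.990) and Mgat5 (0.990), each over 6 mice. Stip1 encodes the cochaperone Hop, which links Hsp70 to Hsp90 in the cytosol. It had 307, 291 and 273 CPM in controls and 290.5, 329.9 and 214 CPM in MitoParks, the same order of the 6 mice as Hspd1 (rho = 1.00, and r = 0.98 without 2 mice). All 5 were picked by their correlation with Hspd1 from 10439 genes, so a close match follows from the choice. With total counts in place of TMM scaling, 3 of the 5 stayed among the first 5.

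The relatives of these genes outside mitochondria, chaperones and the Lonp1 relative Lonp2, had the same low mouse. Of 9 such genes, all 9 were lowest in MitoPark 3, and 5 were highest in MitoPark 2. Among the 7649 tested genes at the levels of the 10 mitochondrial genes, 26.4% were lowest in MitoPark 3. Hspa8, Hspa5, Hsp90aa1, Hsp90ab1 and Hsp90b1 lay above those levels, at means of 2551, 512, 2313, 1708 and 658 CPM. For them that share is therefore not one of genes at their own levels. The sum of the 9 was 9039, 8993 and 8126 CPM in controls and 8678, 9456 and 6814 CPM in MitoParks. Hspa8, the constitutive Hsp70 of the cytosol, had 2594, 2771 and 2541 CPM in controls and 2599.6, 2882 and 1919 CPM in MitoParks, and Hspa5 (BiP), the Hsp70 of the endoplasmic reticulum, had 588, 558 and 393 CPM in controls and 574, 614 and 345 CPM in MitoParks. Both were named after their values were seen. Hspa8 correlated with Hspd1 at r = 0.97 (rho = 0.83), and at 0.25 without 2 mice, so that relation rested on MitoParks 2 and 3. All 9 relatives were lower on average in MitoParks, with a median log2 fold change of -0.02, and the median was 0.07 without MitoPark 3 and 0.02 without control 2. The smallest unadjusted p among them was that of Hsp90aa1, the inducible cytosolic Hsp90, at 0.493 (log2 fold change -0.11, SE 0.15, edgeR).

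The 2 mice lowest for Hspe1 and Hspa5, control 3 and MitoPark 3, were also the 2 with the most oligodendrocyte marker RNA, an order seen after the values were known. Hspa9, Trap1 and Clpx went the other way in control 3, where they were the highest of the controls. The sum of the 4 myelin genes of that list was 6021, 8543 and 16210 CPM in controls and 8283, 10940.5 and 13774 CPM in MitoParks. Astrocyte markers were at 1092, 994 and 1275 CPM in controls and 1168, 1361 and 1559 CPM in MitoParks, and MitoPark 3 was the highest. The 4 general neuron markers were at 3028, 3422 and 4115 CPM in controls and 2874, 3597 and 2881 CPM in MitoParks. No marker gene was at 0 in all mice, the groups overlapped for every list, and the part of cell composition in the levels of the chaperones was not tested. The other lists ranged from 120.3 to 159 CPM in controls and 144 to 157 CPM in MitoParks for microglia, 69.2 to 106 and 81.7 to 100.3 CPM for endothelium, 85.1 to 193 and 152 to 199 CPM for red cells, 7.72 to 149 and 13.4 to 35.9 CPM for choroid plexus, and 111 to 146 and 129.9 to 155 CPM for striatal neurons.

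**Figure D4:**
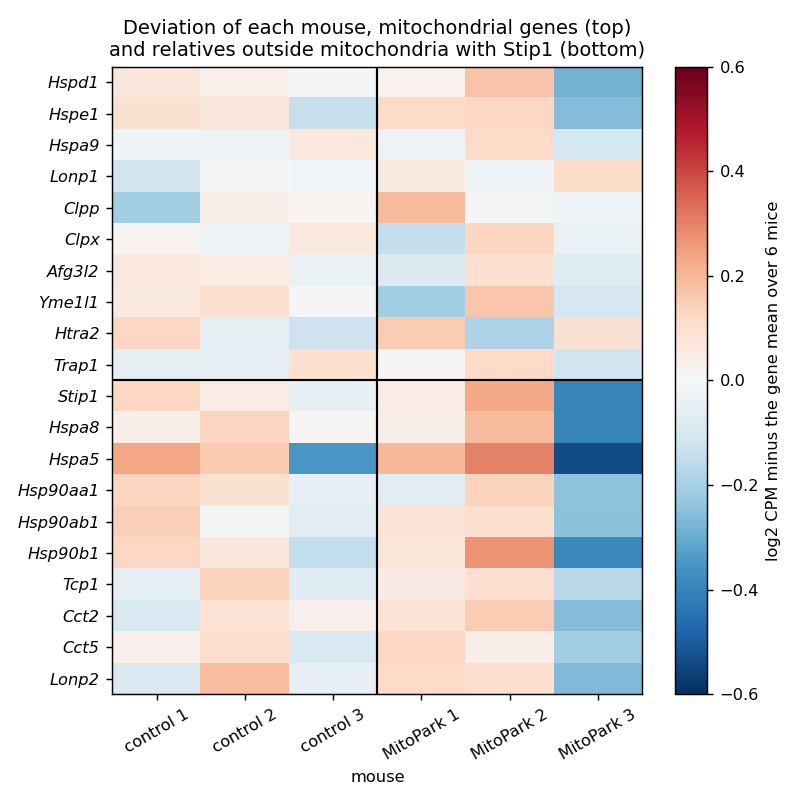
Deviation of each mouse from the gene's mean over 6 mice, in log2 CPM, for the 10 mitochondrial genes above the line and for Stip1 and the 9 relatives outside mitochondria below it. The column of MitoPark 3 is blue for Hspd1, Hspe1 and every gene below the line, and red for Lonp1 and Htra2.

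The wider machinery was read from lists of genes around the 10. Of 32 genes in 4 lists, 21 were higher and 11 lower in MitoParks, 0 had an unadjusted p below 0.05, and the median log2 fold change was 0.04. Among 7 chaperone partners the median was 0.003, and the smallest p was that of Hscb, a cochaperone of iron-sulfur cluster assembly, at 4.84 ± 1.18 CPM in controls and 5.80 ± 1.15 CPM in MitoParks (SD, n = 3 each; log2 fold change 0.26, SE 0.25, unadjusted p = 0.319, edgeR). Among 13 other mitochondrial proteases the median was 0.06, and the smallest p was that of Parl, the rhomboid protease that cleaves PINK1, at 27.6 ± 1.04 and 30.3 ± 1.88 CPM (SD, n = 3 each; log2 fold change 0.13, SE 0.12, unadjusted p = 0.277, edgeR). Among the 3 membrane scaffolds that surround the inner membrane proteases the median was -0.04, and the smallest p was that of Stoml2, at 52.0 ± 8.67 and 47.2 ± 2.05 CPM (SD, n = 3 each; log2 fold change -0.14, SE 0.14, unadjusted p = 0.328, edgeR).

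Of 9 regulators of the response, 8 were higher and 1 lower, with a median log2 fold change of 0.08, beside a median of -0.0047 over all tested genes. The median of the regulators was 0.02 without MitoPark 3 and 0.15 without control 2. The smallest p was that of Atf5, a transcription factor of the mitochondrial unfolded protein response, with 20.2, 19.6 and 19.5 CPM in controls and 23.3, 20.5 and 25.4 CPM in MitoParks. Atf5 was the only 1 of the 32 list genes whose groups did not overlap, beside 4.71% of all tested genes, and the gap between the highest control and the lowest MitoPark was narrow. Its log2 fold change was 0.22 (SE 0.13, 95% interval -0.07 to 0.52, unadjusted p = 0.121, adjusted p = 0.999, edgeR), so the difference did not pass the test.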

How the data were processed

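Polyadenylated RNA of the SN was sequenced from 3 MitoParks and 3 littermate controls, grouped by their labels. The authors mapped reads with Bowtie2 2.1.0 to UCSC transcripts, estimated expected counts per gene with RSEM 1.2.15, and deposited the expected counts as unnormalized values. The submitters' processing notes name a human build for these mouse samples, so no coordinates were taken from the table, and 0 of its value columns were left unmapped. RSEM divides reads shared between genes, and 8 of the 10 genes had whole expected counts in every mouse.

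Totals were 8140777 to 10528602 expected counts per mouse. Replicates are separate mice in the study's text, and no pair differed by as little as sampling noise. Expected counts were rounded, genes were kept where either group's mean CPM exceeded 1, and edgeR 4.0.16 (R 4.3.3) fitted a quasi-likelihood model on TMM-scaled counts with group as the only term. Cutoffs were 0.05 for the unadjusted p and 1.5 for the fold change, and p-values were adjusted by Benjamini-Hochberg across the 14568 genes tested. The 95% intervals are the log2 fold change and its SE with the t quantile of the moderated degrees of freedom. Correlations used log2(CPM + 0.1). The procedure was tested on simulated counts in which every gene had the same dispersion and no mouse stood apart. Transcript lengths and overlaps came from GENCODE M21, and promoters from RefSeq (GRCm38.p6), which held 7 of the 10 genes.

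Alternatives were RLE, upper quartile and total count scaling, no filter and filterByExpr, unrounded counts, the likelihood ratio test, DESeq2 1.42.0, limma-voom (limma 3.58.1), robust dispersion, a replicate block, each mouse left out in turn and, chosen after seeing the data, the legacy quasi-likelihood method. The 10 genes and all lists were chosen with earlier results of these data known. The genes named were the 10, Tfam, Spg7 and Grpel1, Th and Slc6a3, the gene with the smallest p in each list unless one was below 0.05, and the 5 genes above 10 CPM with the highest correlation with Hspd1. Of these 5, 1 is not reported here. Of the list genes, 3 were counted under older symbols.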

Additional observations from a re-analysis of the deposited data

How the results depend on the processing

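No chaperone or protease passed both cutoffs, or an unadjusted p of 0.05, under any alternative, and the smallest p was 0.0971 (Yme1l1 without MitoPark 2). Apart from mice left out, directions held for all 10 except with total counts, where Hspe1 (log2 fold change 0.0026) and Hspa9 (0.0028) turned positive. Leaving out 1 mouse gave -0.15 to 0.07 for Hspd1 (positive only without MitoPark 3), -0.08 to 0.11 for Hspe1, -0.07 to 0.04 for Hspa9, -0.11 to 0.03 for Clpx, -0.19 to 0.00033 for Yme1l1, -0.01 to 0.15 for Htra2 and -0.05 to 0.07 for Trap1. Lonp1 (0.06 to 0.13), Clpp (0.03 to 0.15), Afg3l2 (-0.10 to -0.0017) and Tfam (-0.44 to -0.36) kept their direction. The log2 ratio difference ran from -0.08 to 0.01 for Hspd1/Hspe1, from -0.08 to 0.04 for Hspa9/Grpel1, from 0.01 (without MitoPark 1) to 0.25 for Clpp/Clpx and from -0.25 to -0.08 for Afg3l2/Spg7. Medians ran from -0.07 to 0.05 for the 10 genes, -0.01 to 0.04 for chaperone partners, -0.03 to 0.13 for other mitochondrial proteases, -0.11 to 0.03 for scaffolds, 0.02 to 0.15 for regulators and -0.09 to 0.07 for relatives outside mitochondria. The cause of these turns was not tested.

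Counts over all genes moved more. Without a filter, which tests 19235 genes, 120 were higher and 78 lower, and the replicate block gave 90 higher and 46 lower. The labels do not say that the replicate numbers pair the mice, and whether they do was not tested. Same-numbered mice deviated with r = 0.307, -0.0738 and 0.244, and differently numbered mice with r from -0.391 to 0.149. The block moved the calls of none of the 10. Leaving out 1 mouse gave 27 to 163 genes higher and 27 to 78 lower. The count higher was 84 without control 1, 146 without control 3, 98 without MitoPark 1, 163 without MitoPark 2 and 27 without MitoPark 3, and the count lower was 57, 45, 78 and 68 without controls 1, 2 and 3 and MitoPark 2. An adjusted p below 0.05 was reached by 1 gene under the likelihood ratio test and by 1 under the block. With 3 mice per group, differences of the 10 genes that lie inside their 95% intervals were not excluded.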
